A study of Mus musculus with 30 samples.

Results

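The genes described here are 32 genes of the integrated stress response and of serine, one-carbon and proline synthesis, measured by RNA-seq in mouse embryonic stem cells (ESCs) moved from glucose to galactose medium. They were taken by name from a list of ATF4-linked stress genes, amino acid transporters and biosynthetic enzymes, with the symbol looked up from the Ensembl identifier in each count table. All 32 were present among the 52630 genes of the time-course table and the 55487 genes of the passage table, and all 32 passed the filter on low counts that left 16049 and 16054 genes to test. In the passage table Ddit3 had a further identifier with 0 counts in every library, which was not used. By role the list held 7 transcription factors and cofactors, 6 stress effectors, 6 amino acid transporters, 4 enzymes of asparagine, proline and cysteine synthesis, 3 enzymes of serine synthesis and 6 enzymes of folate one-carbon metabolism.

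All samples came from the E14tg2a mouse ESC line. In the time course, cells were kept in Serum/LIF (labelled 0 h) or in Enhanced Metabolic Media (EMM) for 3, 9 or 24 h, which made 12 libraries, 3 for each group. EMM is the serum and LIF medium with D-galactose in place of D-glucose and pyruvate, so that the loss of glucose, the loss of pyruvate and the gain of galactose cannot be told apart. In the passage experiment, cells were kept for 10 or 20 passages (P10, P20) in Serum/LIF, in EMM or in 2i/LIF, a medium with LIF and inhibitors of MEK and GSK3, which made 18 libraries, again 3 for each group. The labels give 24 h of Serum/LIF for the control of the time course, so at 3 and 9 h the medium and the hours since it was changed cannot be told apart. All groups contain LIF, and Serum/LIF and EMM share serum, added nonessential amino acids and glutamine. The paper counts 2i/LIF among defined media and gives it another base medium in its proteome samples. In comparisons with 2i/LIF the inhibitors, the lack of serum and the base medium therefore cannot be told apart.

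The integrated stress response starts with phosphorylation of the translation factor eIF2 by kinases that sense uncharged tRNA, unfolded protein, haem shortage or double-stranded RNA. General translation then drops while translation of the transcription factor ATF4 rises, and ATF4 with its CEBP partners binds composite CEBP-ATF elements near genes for amino acid uptake, tRNA charging and the synthesis of serine, asparagine, proline and one-carbon units. Because ATF4 is set largely by translation, its mRNA level is not a measure of its protein, and protein was not measured in the files used here. Serine feeds the folate cycle, which supplies carbon units for purines and thymidylate, and in ESCs these pathways are tied to rapid division.

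Depth was 24074132 to 35301962 counts per library in the time course and 6944916 to 27912943 in the passage experiment. Normalised read counts below are counts divided by the library's effective size and multiplied by the mean effective size of the experiment, so they compare libraries within an experiment only. Of the ESC markers, Pou5f1 was high in every group, at 28298 to 32144 normalised counts in the time course and 15068 to 30907 in the passage experiment, and Utf1 was lower in 2i/LIF, at 362 to 838 at P10 against 3527 to 4909 in the other P10 groups, and at 1105 to 1574 at P20 against 3276 to 4202 in the other P20 groups. Other ESC markers moved in other ways. Nanog was higher in 2i/LIF, at 6491 to 8518 against 3711 to 5062 in the other P10 groups and at 9259.6 to 12697 against 3380.2 to 8033 in the other P20 groups. In the time course Sox2 lay at 20433 to 21019 at 0 h and 13649 to 13850.3 at 3 h, and Esrrb at 22539.6 to 22989 and 34116 to 34620.1. In the passage experiment, markers of other cell types differed between the media. The summed level of 5 fibroblast markers was 2156 to 2567 in P10 Serum/LIF against 284 to 364 in P10 EMM and 43.6 to 59.5 in P10 2i/LIF, and 3478 to 6894 in P20 Serum/LIF against 139.5 to 192 and 77.5 to 88.7. The sum was mostly Col1a1 in Serum/LIF and Thy1 in EMM. Thy1 went the other way at P10, at 115 to 167 in Serum/LIF and 259 to 357 in EMM, and overlapped at P20. The fibroblast gene Dcn had at most 20 raw counts in any library. The sum of 6 trophoblast markers, mostly Krt8 and Krt18 with at most 6 raw counts of Elf5, was 8219.6 to 9594 in P10 Serum/LIF against 553 to 767 in P10 EMM, and 4264 to 5898 in P20 Serum/LIF against 735 to 768 in P20 EMM. The 2-cell-like markers summed to 126 to 246 and 321 to 719.5 in Serum/LIF and to 7.79 to 20.6 and 8.7 to 50.4 in EMM at P10 and P20. In the time course the fibroblast sum was 1770.3 to 1841 at 0 h and 1218 to 1439 at 24 h, and the trophoblast sum was 4314 to 4722 and 7797 to 8154. Of the trophoblast markers Krt8, Krt18, Gata3 and Eomes were higher at 24 h. Cdx2 was lower, at 58.2 to 84.8 at 0 h and 27.8 to 44.5 at 24 h. The primitive endoderm sum was 331 to 341 at 0 h and 442 to 469 at 24 h, without overlap. Their part in the results below was not tested, and in bulk libraries fewer cells of a type and less RNA per cell cannot be told apart. P20 2i/LIF replicate 1, the shallowest library, stood apart from its group, with 3.95% of its counts in the single gene CT010467.1. That gene was also the top gene of P10 EMM replicate 3, a shallow library with 7329841 counts, at 1.54%. In the other passage libraries the top gene was Eef1a1.

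The promoters of the members were searched for TGATGNAA on both strands, the core of the CEBP-ATF composite element, in RefSeq windows (GRCm38.p6) from 250 bases before to 50 after each annotated start. A window was found for 28 of the 32 members, and Slc7a3, Slc7a5, Cth and Aldh1l2 had none in the table. The letters occurred near 8 of these 28 genes (Atf3, Nupr1, Trib3, Chac1, Vldlr, Slc7a11, Asns and Pycr1), against 4.51% of 27025 genes and 3.97% of 32851 windows. The list was drawn up from genes known as ATF4 targets, so this share is a description of the list. Shown here are the 250 bases before the start, 5′ to 3′ on the gene's strand, for the 4 genes with a match whose called change between EMM and Serum/LIF was the largest, with the matched letters in capitals.
Atf3: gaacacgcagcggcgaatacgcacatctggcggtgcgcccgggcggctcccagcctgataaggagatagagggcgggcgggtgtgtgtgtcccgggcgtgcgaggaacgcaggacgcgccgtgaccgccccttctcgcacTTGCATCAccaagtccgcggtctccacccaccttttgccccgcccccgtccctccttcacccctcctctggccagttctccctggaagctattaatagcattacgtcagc
Chac1: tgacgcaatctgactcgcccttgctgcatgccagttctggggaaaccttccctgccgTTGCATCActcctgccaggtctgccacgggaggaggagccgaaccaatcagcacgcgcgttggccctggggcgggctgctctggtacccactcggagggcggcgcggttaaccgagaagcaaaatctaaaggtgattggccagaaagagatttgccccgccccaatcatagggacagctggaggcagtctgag
Pycr1: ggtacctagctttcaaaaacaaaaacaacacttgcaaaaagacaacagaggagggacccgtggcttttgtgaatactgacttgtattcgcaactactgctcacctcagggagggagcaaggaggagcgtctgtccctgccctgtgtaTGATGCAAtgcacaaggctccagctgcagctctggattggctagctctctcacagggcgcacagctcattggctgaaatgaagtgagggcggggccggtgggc
Nupr1: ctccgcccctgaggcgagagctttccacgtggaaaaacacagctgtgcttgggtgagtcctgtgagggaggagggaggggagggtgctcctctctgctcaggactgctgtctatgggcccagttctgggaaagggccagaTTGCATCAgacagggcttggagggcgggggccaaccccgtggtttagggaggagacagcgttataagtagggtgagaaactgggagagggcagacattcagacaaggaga
The Atf3 stretch is chr1:191183334-191183583 on the minus strand, and its match TTGCATCA, the element read on the other strand, begins at -110. That of Chac1 is chr2:119350992-119351241 on the plus strand with the same letters at -193, and that of Nupr1 is chr7:126625471-126625720 on the minus strand with them at -110. In Pycr1, chr11:120643749-120643998 on the minus strand, the element reads TGATGCAA and begins at -103. All 4 genes had a called fall in EMM in at least 1 comparison, as described below, and a match in a sequence is not evidence of binding.

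In the Serum/LIF control of the time course, members differed widely in level. Per kb of exon, at 0 h the highest were Atf4 (4203 normalised counts per kb), Psat1 (3372), Slc7a5 (3114), Mthfd1 (2919), Shmt2 (2738) and Asns (2714). The lowest were Slc7a11 (9.99), Aldh1l2 (13.8), Vldlr (17.3), Slc6a9 (35.7), Atf3 (59.0) and Nupr1 (78.7). Enzymes stood at both ends of this range, with Psat1, Mthfd1, Shmt2 and Asns near the top, Psph (394) and Pycr1 (165) well below them, and Aldh1l2 near the bottom.

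The time course asks how these genes responded when glucose was replaced. Members were mostly lower in EMM, and more of them were lower at each later time. At adjusted p under 0.01 in edgeR's quasi-likelihood test, 17 of 32 were lower and 1 was higher at 3 h, where 18.2% of all genes tested were lower and 16.3% higher. At 9 h 22 were lower and 1 was higher, against 19.7% and 18.5% of all genes. At 24 h 25 were lower and 1 was higher, against 22.2% and 21.8%. The median log2 fold change of the members was -0.27 at 3 h, -0.45 at 9 h and -0.56 at 24 h, while the median of all genes tested was -0.013 or nearer to 0 at each time.

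**Figure D1:**
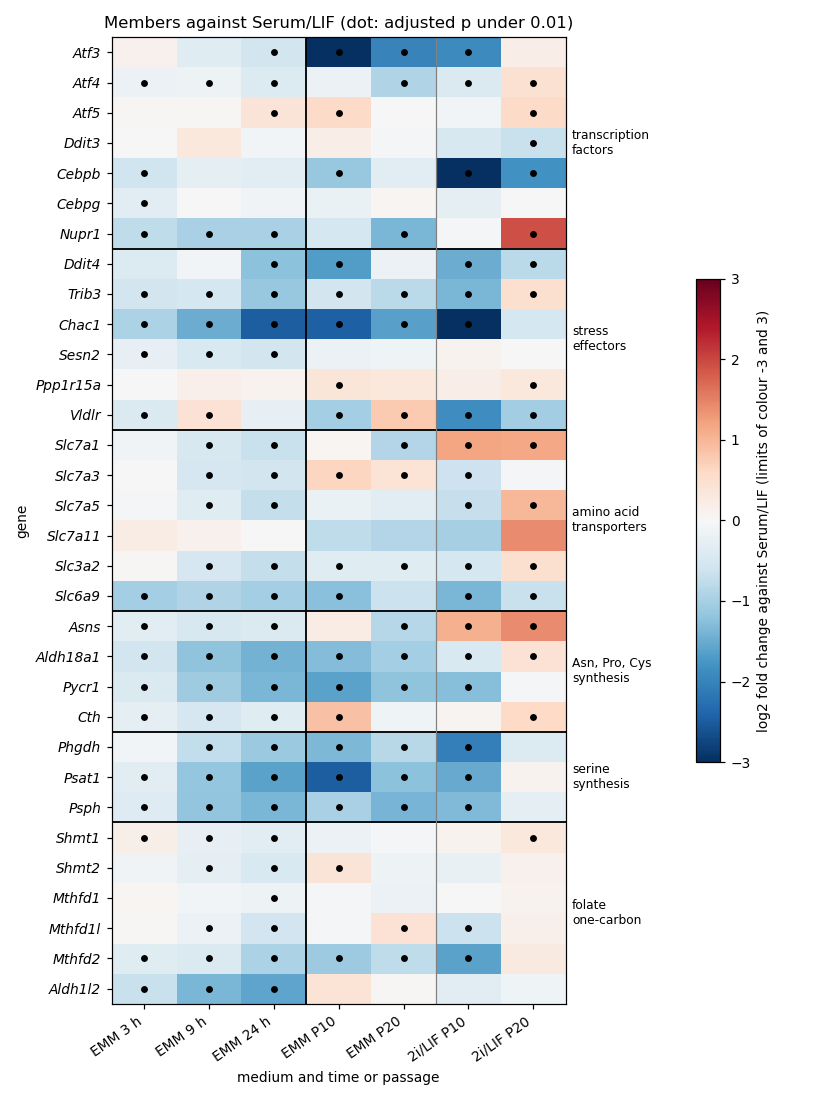
Heat map of the log2 fold change against Serum/LIF for the 32 members (rows, grouped by role) in EMM at 3, 9 and 24 h, in EMM at P10 and P20 and in 2i/LIF at P10 and P20 (columns). Colour runs from -3 (blue) to 3 (red) and dots mark adjusted p under 0.01; the serine synthesis genes are blue in EMM from 9 h on and at both passages, while the P20 2i/LIF column holds 12 higher and 5 lower members.

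Among the transcription factors, Atf4 itself fell little. Its mRNA stood at 9861, 9983 and 9887 normalised counts in the 3 libraries at 0 h, 8999, 8619 and 8825 at 3 h, 8653, 9109.6 and 9103 at 9 h and 7242, 7806 and 7401 at 24 h. All EMM libraries lay below all Serum/LIF libraries, and those at 24 h lay below all others. The log2 fold change (± standard error) at 24 h was -0.41 ± 0.037 (adjusted p = 2.9e-07). The small differences at 3 h (-0.17 ± 0.037) and 9 h (-0.15 ± 0.037) passed the threshold too. That at 3 h was lost without EMM 3 h replicate 2, or, with every library kept, with no filter on low counts (-0.15 to -0.14, adjusted p = 0.013). That at 9 h was lost without Serum/LIF replicate 1, 2 or 3 or EMM 9 h replicate 1 or 3, or, with every library kept, with no filter on low counts, with the replicate numbers of the column names as a block or with only the groups compared in the fit (-0.15 to -0.11, adjusted p = 0.0104 to 0.046).

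Nupr1, a small stress-induced chromatin protein, fell early and stayed low. It had 199.8, 188 and 206 normalised counts at 0 h, 113, 126 and 111 at 3 h, 97.2, 106 and 97.4 at 9 h and 104, 92.2 and 105 at 24 h, with no overlap between Serum/LIF and EMM. The log2 fold change was -0.76 ± 0.091 at 3 h and -0.97 ± 0.094 at 24 h (adjusted p = 5.1e-07). Atf3, a stress-induced factor that often represses, had 121, 131 and 129 normalised counts at 0 h, 112, 143 and 158 at 3 h, 101, 93.8 and 102 at 9 h and 91.8, 93.2 and 77.1 at 24 h. Its 3 h libraries overlapped Serum/LIF and its 24 h libraries lay below it. The 24 h difference, -0.54 ± 0.13 (adjusted p = 0.0024), lost the call without Serum/LIF replicate 2 or EMM 24 h replicate 3 (-0.50 to -0.45, adjusted p = 0.013 to 0.017).

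Ddit3, which encodes the pro-apoptotic factor CHOP, was not called at any time. Its normalised counts were 306, 228 and 376 at 0 h, 294, 315 and 287 at 3 h, 294, 293 and 551 at 9 h and 176, 336 and 347 at 24 h, so the groups overlapped and libraries of one group differed widely. Its log2 fold change at 24 h was -0.082 ± 0.27, and its reads may be shared with the overlapping opposite-strand gene Mars, since the strand used in counting is not given in the sources used here. Atf5, another ATF4-related factor that overlaps Nup62, was the 1 member higher at 24 h, from 797 ± 102 (SD, n = 3) to 1048 ± 126 (log2 fold change 0.40 ± 0.092, adjusted p = 0.0019). The CEBP partners Cebpb (-0.60 ± 0.13) and Cebpg (-0.33 ± 0.044) fell at 3 h and were not called at 9 or 24 h, and for Cebpb the 3 h call was lost without Serum/LIF replicate 1 (-0.48, adjusted p = 0.011).

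Of the stress effectors, Chac1 showed the largest log2 fold change of any member at 24 h. It encodes an enzyme that degrades glutathione and is a known ATF4 target. It had 1035, 1014 and 899 normalised counts at 0 h, 533, 488 and 517 at 3 h, 319.7, 393 and 342 at 9 h and 184, 172 and 173 at 24 h. Each time lay below the one before with no overlap, and at 24 h the level was 5.57-fold lower than in Serum/LIF (log2 fold change -2.48 ± 0.085, adjusted p = 8.6e-12). The fall from 9 to 24 h was itself called, at -1.0 ± 0.09 (adjusted p = 3.3e-06).

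Ddit4, which encodes the mTORC1 inhibitor REDD1, fell late. Its values were 3423, 3431 and 2459.7 normalised counts at 0 h, 2605, 2018 and 2369.9 at 3 h, 2711, 3385 and 2713 at 9 h and 1493, 1146 and 1334 at 24 h. The 3 h and 9 h libraries overlapped Serum/LIF, whereas those at 24 h lay below every other library. The 24 h log2 fold change was -1.23 ± 0.13 (adjusted p = 1.8e-06). Trib3, a pseudokinase that feeds back on ATF4, was lower at all 3 times (-0.54, -0.52 and -1.13 ± 0.064), and so was the leucine sensor Sesn2 (-0.25, -0.46 and -0.54 ± 0.034). Ppp1r15a, the eIF2 phosphatase subunit GADD34, was not called at any time (0.11 ± 0.047 at 24 h). The lipoprotein receptor Vldlr went both ways, -0.42 ± 0.11 at 3 h, 0.43 ± 0.10 at 9 h and -0.24 ± 0.11 at 24 h, of which the first and second passed the test. Its 3 h call was lost without Serum/LIF replicate 2 or 3 or EMM 3 h replicate 1, 2 or 3 (-0.45 to -0.37, adjusted p = 0.011 to 0.023). Its 9 h call was lost without Serum/LIF replicate 1 or EMM 9 h replicate 2 or 3, or, with every library kept, with the replicate numbers of the column names as a block or with only the groups compared in the fit (0.34 to 0.44, adjusted p = 0.0102 to 0.025).

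Among the amino acid transporters, 1 of 6 was lower at 3 h, a share close to the 18.2% of all genes. At later times 5 of 6 were lower, at 9 h and at 24 h, against 19.7% and 22.2%. That at 3 h was Slc6a9, the glycine transporter GlyT1, with 211, 191 and 150.0 normalised counts at 0 h, 105, 74.0 and 91.5 at 3 h, 93.5, 116 and 85.0 at 9 h and 90.9, 84.8 and 95.6 at 24 h. It fell by 3 h to about its later level (-1.03 ± 0.15 and -1.02 ± 0.15), with no overlap with Serum/LIF, and it overlaps Ccdc24 and B4galt2 in the genome. Slc7a1, a carrier of arginine and lysine, had 3950.2, 3785 and 4058 at 0 h, 3725, 3425 and 3728 at 3 h, 2772, 2999.6 and 2634 at 9 h and 2529.7, 2402 and 2467 at 24 h. Its EMM libraries lay below Serum/LIF at every time, with a called difference at 9 h (-0.49 ± 0.05) and 24 h (-0.67 ± 0.05, adjusted p = 3.6e-08). The related carrier Slc7a3 and both chains of the leucine transporter, Slc7a5 and Slc3a2, were near 0 at 3 h (-0.0056, -0.062 and 0.037) and lower at 24 h (-0.55 ± 0.046, -0.71 ± 0.069 and -0.71 ± 0.048). Slc7a11, the cystine carrier of glutathione synthesis, was not called at any time (-0.0097 ± 0.14 at 24 h).

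All 4 enzymes of asparagine, proline and cysteine synthesis were lower at every time, against 18.2%, 19.7% and 22.2% of all genes at 3, 9 and 24 h. Aldh18a1, which makes the pyrroline carboxylate precursor of proline, had 3122, 3228 and 3239 normalised counts at 0 h, 2218, 2148 and 2182 at 3 h, 1403, 1393 and 1375 at 9 h and 1262, 1125 and 1226 at 24 h. Pycr1, which completes proline synthesis in mitochondria, had 648, 707 and 596 at 0 h, 523, 458 and 472 at 3 h, 314, 329.8 and 285 at 9 h and 257, 248 and 253 at 24 h. For both genes each time lay below the one before in every library. At 24 h their log2 fold changes were -1.41 ± 0.043 (adjusted p = 3e-12) and -1.36 ± 0.08 (adjusted p = 2.7e-09).

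Asparagine synthetase, Asns, fell less, and levelled after 9 h. It had 7394, 7675 and 7197 normalised counts at 0 h, 5999, 5679 and 5977 at 3 h, 4981, 5579 and 5460.4 at 9 h and 5697, 5421 and 5466 at 24 h. EMM libraries lay below Serum/LIF throughout, and the 9 h and 24 h libraries overlapped each other. The log2 fold change was -0.48 ± 0.045 at 9 h and -0.43 ± 0.045 at 24 h (adjusted p = 1.4e-06). Cth, the last enzyme of the pathway from methionine to cysteine, also fell by 9 h (-0.50 ± 0.039) and was still lower at 24 h (-0.36 ± 0.039). Its 24 h libraries (3211 to 3380) lay above those at 9 h (2834 to 3103) and below Serum/LIF.

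**Figure D2:**
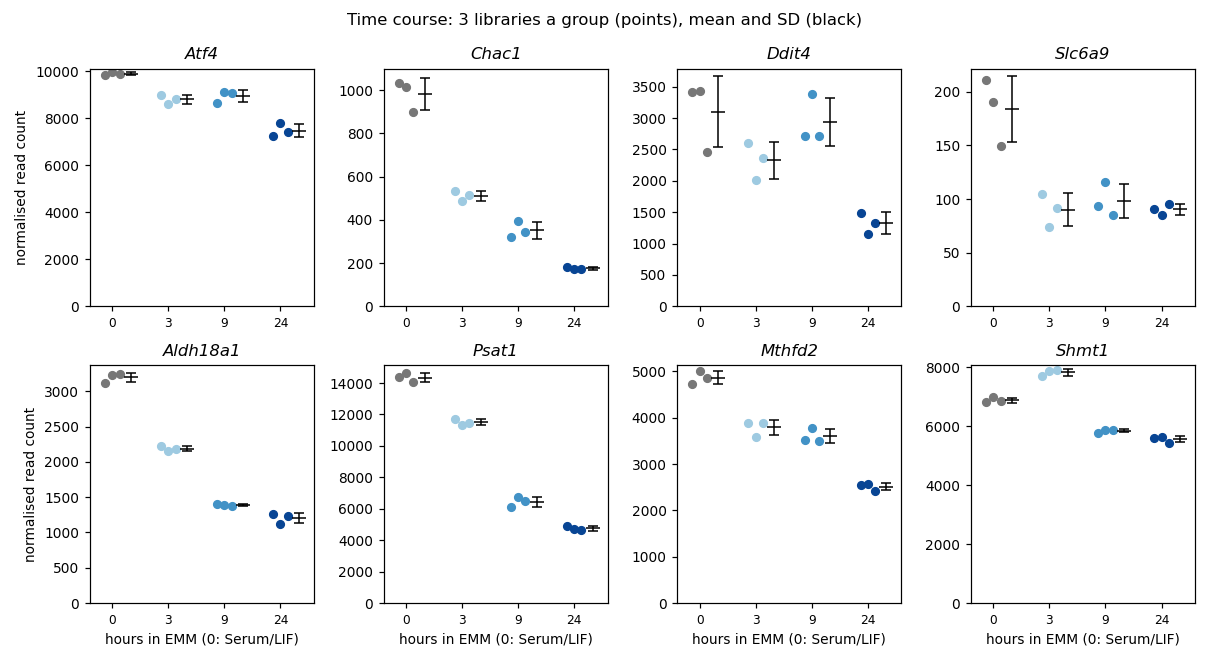
Normalised read counts (y axis, from 0) of Atf4, Chac1, Ddit4, Slc6a9, Aldh18a1, Psat1, Mthfd2 and Shmt1 against hours in EMM (x axis, 0 being Serum/LIF), with 3 libraries a group as points and the mean and SD in black. Chac1 and Aldh18a1 step down from 3 h, Psat1 mostly between 3 and 9 h, Ddit4 between 9 and 24 h, and Shmt1 is higher at 3 h and lower after.

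All 3 serine synthesis genes were lower from 9 h on, where 19.7% of all genes were lower at 9 h and 22.2% at 24 h. Psat1, the aminotransferase of the pathway, had 14357, 14622 and 14049.8 normalised counts at 0 h, 11739, 11350.0 and 11429 at 3 h, 6131, 6772 and 6473 at 9 h and 4933, 4691 and 4630.2 at 24 h. Every step was free of overlap, and the log2 fold change went from -0.32 ± 0.04 at 3 h to -1.59 ± 0.041 at 24 h (adjusted p = 4.9e-13), a level 3.02-fold lower. Psph, the phosphatase that releases serine and overlaps Cct6a, had 1763, 1730.4 and 1623 at 0 h, 1305, 1270.1 and 1323 at 3 h, 704, 786 and 782 at 9 h and 702, 616 and 653 at 24 h, and its 24 h log2 fold change was -1.38 ± 0.059 (adjusted p = 8.8e-11).

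Phgdh, the dehydrogenase that commits the glycolytic intermediate 3-phosphoglycerate to serine, lagged. It had 4343, 4340.3 and 4055 normalised counts at 0 h, 4048, 4018 and 3909 at 3 h, 2597, 2583 and 2489 at 9 h and 2041, 1894 and 1967 at 24 h. At 3 h all libraries lay below Serum/LIF but the difference was not called (-0.089 ± 0.04, adjusted p = 0.077). At 9 h it was -0.73 ± 0.04 and at 24 h -1.11 ± 0.041 (adjusted p = 1.7e-11), and reads from the annotated copy Phgdh-ps1 cannot be told apart here.

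Of the 6 folate enzymes, 2 were lower at 3 h, 5 at 9 h and 6 at 24 h, against 18.2%, 19.7% and 22.2% of all genes. Mthfd2, the mitochondrial dehydrogenase known as an ATF4 target, had 4725, 5005 and 4866 normalised counts at 0 h, 3879.6, 3596 and 3898 at 3 h, 3526, 3773 and 3494 at 9 h and 2539, 2568 and 2422 at 24 h. All EMM libraries lay below Serum/LIF and those at 24 h below the rest (-0.96 ± 0.044, adjusted p = 2.3e-10). Aldh1l2, a scarce mitochondrial enzyme that oxidises formyl folate, had 89.6, 108 and 114 at 0 h, 81.3, 66.4 and 50.9 at 3 h, 47.2, 37.0 and 36.3 at 9 h and 32.9, 39.8 and 30.8 at 24 h. Its log2 fold change at 24 h, -1.59 ± 0.18, was the same as that of Psat1, on far fewer reads. Its 3 h call (-0.66 ± 0.16) was lost without Serum/LIF replicate 2 or 3 or EMM 3 h replicate 2 or 3 (-0.67 to -0.50, adjusted p = 0.012 to 0.024).

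Shmt2, which splits serine into glycine and a carbon unit in mitochondria, fell slowly. It had 8499.7, 8868 and 8171 normalised counts at 0 h, 8037, 7908 and 7713 at 3 h, 7001, 7249 and 6821 at 9 h and 6371, 5939 and 6150.4 at 24 h, with a log2 fold change of -0.47 ± 0.041 at 24 h (adjusted p = 1.7e-07). The cytosolic enzyme Shmt1 was the 1 member higher at 3 h (0.18 ± 0.032, adjusted p = 0.00022), and was lower at 24 h (-0.31 ± 0.032). Mitochondrial Mthfd1l was lower at 24 h (-0.58 ± 0.044). Cytosolic Mthfd1 was lower by little (-0.15 ± 0.033), a call that was lost without EMM 24 h replicate 2, or, with every library kept, with no filter on low counts, with the replicate numbers of the column names as a block or with only the groups compared in the fit (-0.14 to -0.12, adjusted p = 0.011 to 0.035).

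Compared time against time, 18 members fell and 2 rose from 3 to 9 h, where 12.9% of genes fell and 13.7% rose, and 13 fell and 1 rose from 9 to 24 h, where 6.02% fell and 7.0% rose. From 3 to 9 h the largest falls were in Psat1 (-0.83), Psph (-0.78), Aldh1l2 (-0.70), Aldh18a1 (-0.65), Phgdh (-0.64) and Pycr1 (-0.64). From 9 to 24 h they were in Ddit4 (-1.15), Chac1 (-1.0), Vldlr (-0.66), Trib3 (-0.60) and Mthfd2 (-0.52). Of the 3 intervals, the one from 3 to 9 h held the largest fall of Psat1, Psph, Phgdh, Aldh18a1 and Pycr1, the one after 9 h that of Ddit4, Chac1, Trib3 and Mthfd2, and the first 3 h that of Slc6a9, Nupr1 and Asns, and the intervals were not tested against each other. The Aldh1l2 fall from 3 to 9 h lost the call without EMM 3 h replicate 1 or 2 or EMM 9 h replicate 2 or 3, or, with every library kept, with scaling by library totals alone or with only the groups compared in the fit (-0.69 to -0.54, adjusted p = 0.011 to 0.044).

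Genes of the same pathways outside the list were compared in the same way. These lists too were chosen with earlier results of these data known, so they are no independent background. Of 20 tRNA synthetases, 4 were lower at 3 h, close to the 18.2% of all genes. At 9 h 15 were lower and at 24 h 17, against 19.7% and 22.2%. The largest falls at 24 h were in Cars (-0.89) and Gars (-0.73), and Qars was higher (0.16). Of 16 other ATF4 targets tested, 8, 9 and 11 were lower and 1, 1 and 2 higher at the 3 times. Of all genes 18.2%, 19.7% and 22.2% were lower and 16.3%, 18.5% and 21.8% higher. At 24 h the growth factor gene Gdf15 (-1.79) and the neutral amino acid carrier Slc1a4 (-1.0) were lowest, and Jdp2 (1.18) and Cebpd (0.85) were higher. The 9 genes for eIF2 and its kinases had a median of 0.023 at 24 h, with 1 higher and 2 lower. Of all genes 21.8% were higher and 22.2% lower, the latter a share close to that of the 9 genes.

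The chaperone branch of the unfolded protein response moved in the other direction at 3 and 9 h and in the same direction at 24 h. Of its 12 genes, 8 were higher and 0 lower at 3 h, led by Hspa5 (0.74) and Creld2 (0.51), and 7 were higher and 1 lower at 9 h. Of all genes 16.3% and 18.5% were higher at these times and 18.2% and 19.7% lower. At 24 h 0 were higher and 6 were lower, against 21.8% and 22.2% of all genes, led by Herpud1 (-0.85) and Manf (-0.38). Among 17 neighbouring folate, glycine and methionine genes, 3 were higher and 3 lower at 3 h, close to the 16.3% higher and 18.2% lower of all genes, and 2 higher and 6 lower at 24 h, where 21.8% and 22.2% of all genes were called. Among 8 proline and glutamate neighbours, 3 were higher at 24 h, led by Prodh (0.59), which degrades proline, and 4 were lower, led by Oat (-0.46). Of 10 p53 targets, a list checked because Sesn2 and Ddit4 also answer to p53, 0 were higher and 6 lower at 24 h, against the same 21.8% and 22.2%, led by Bbc3 (-1.21) and Zmat3 (-0.71).

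**Figure D3:**
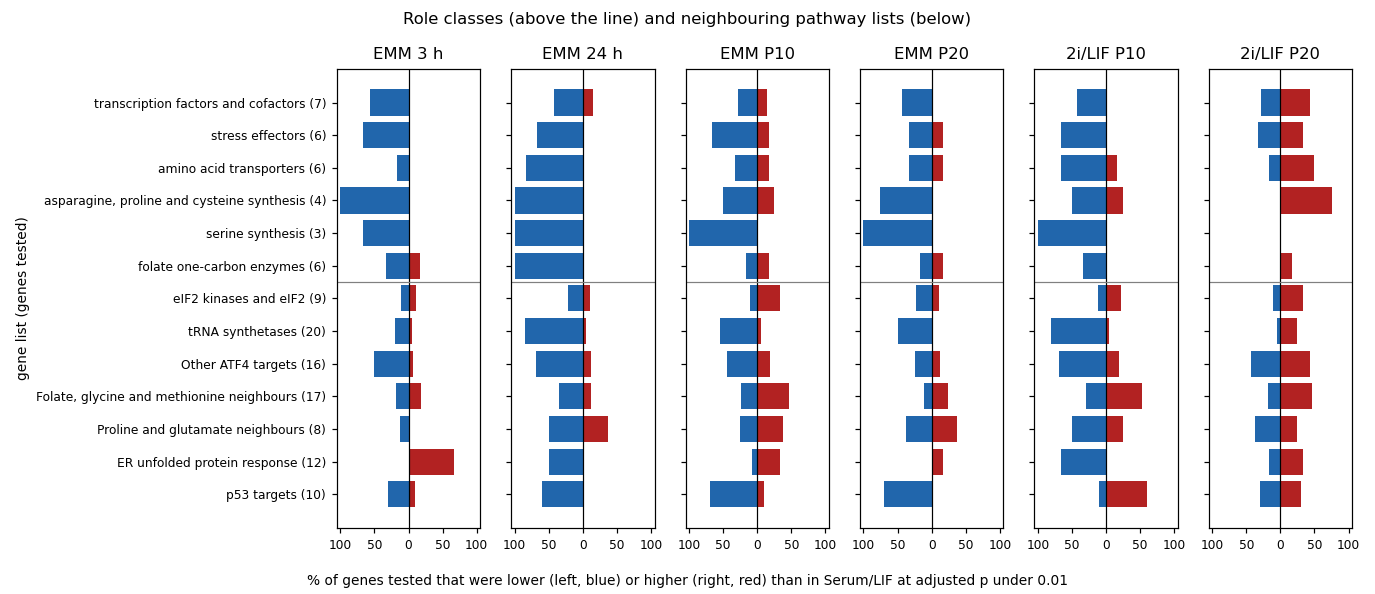
Share of the tested genes of each list (y axis, number tested in brackets) that were lower (left, blue) or higher (right, red) than Serum/LIF at adjusted p under 0.01 (x axis, in percent), in panels for EMM at 3 h, 24 h, P10 and P20 and for 2i/LIF at P10 and P20, with the role classes above the grey line and other pathway lists below it. All 3 serine synthesis genes are lower in EMM at 24 h, P10 and P20, and the unfolded protein response list is higher at 3 h (8 of 12) and lower at 24 h (6 of 12).

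The passage experiment asks whether the difference from Serum/LIF held in long culture. At P10, 14 members were lower and 5 higher in EMM than in Serum/LIF, where 18.7% of all genes were lower and 18.7% higher. At P20, 14 were lower and 3 higher, against 12.5% and 13.6%. Scaling by library totals alone gave 17 lower and 3 higher at P10, where 3582 of 16054 genes were lower and 2320 higher. Member medians were -0.28 at P10 and -0.34 at P20, where the medians of all genes were 0.012 and -0.00. These comparisons carry the marker differences given above, with every Serum/LIF library above every EMM library in the fibroblast, trophoblast and 2-cell-like sums. Thy1 of the fibroblast list was higher in EMM at P10, as given above. At P10 the primitive endoderm sum was also higher in Serum/LIF (174 to 225 against 68.6 to 91.6), while at P20 it overlapped. The ESC marker sum was lower in Serum/LIF at P10 (71690.3 to 76972 against 87814 to 120298) and higher at P20 (75067 to 82052 against 67852 to 70063). Single markers went against these sums without overlap. At P10 Nanog was higher in Serum/LIF (4133 to 5062 against 3711 to 4021). At P20 Sall4 (4459 to 4858 against 5628 to 5930), Utf1 (3276 to 3655 against 3860 to 4202) and Esrrb (7387 to 8468 against 8470 to 9302) were lower there. Nanog, Zfp42 and Dppa5a went with the P20 sum. The part of these markers in the members' differences was not tested.

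Serine synthesis was the class lower throughout, with all 3 genes lower at both passages, where 18.7% and 12.5% of all genes were. Psat1 had 8175, 8684 and 7896 normalised counts in P10 Serum/LIF and 1519.7, 1479 and 1457 in P10 EMM, and 6884, 6818 and 6697 in Serum/LIF and 2867, 2880.5 and 2975 in EMM at P20. The media did not overlap, and the log2 fold change was -2.47 ± 0.072 at P10 (adjusted p = 3.3e-14, 5.55-fold lower) and -1.23 ± 0.068 at P20 (adjusted p = 4.4e-10). Phgdh had 4614, 4716 and 4349.8 in Serum/LIF and 1439, 1718 and 2254 in EMM at P10, and 3149, 2994 and 3025 in Serum/LIF and 1763, 1765 and 1660.3 in EMM at P20, again without overlap. Its log2 fold changes were -1.35 ± 0.20 (adjusted p = 2.3e-05) and -0.82 ± 0.20 (adjusted p = 0.0031), and the P20 call was lost without P20 EMM replicate 1, 2 or 3 or P20 Serum/LIF replicate 1 (-0.83 to -0.79, adjusted p = 0.011 to 0.015). Psph had 643, 586 and 570.3 in Serum/LIF and 274, 289.9 and 364 in EMM at P10, and 683, 587 and 643 in Serum/LIF and 246, 242 and 242 in EMM at P20, with log2 fold changes of -0.97 ± 0.12 and -1.39 ± 0.11 (adjusted p = 5.7e-08).

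The proline enzymes kept their direction too. Aldh18a1 had 1325, 1384 and 1245 normalised counts in Serum/LIF and 563, 541 and 497 in EMM at P10, and 1211, 1336 and 1428 in Serum/LIF and 690.3, 634 and 641 in EMM at P20 (-1.30 ± 0.11 and -1.02 ± 0.10). Pycr1 had 356, 374 and 369 in Serum/LIF and 127, 101 and 135 in EMM at P10, and 415, 439 and 407 in Serum/LIF and 193, 191 and 162 in EMM at P20 (-1.60 ± 0.12 and -1.21 ± 0.11). Neither gene overlapped between the media at either passage, and all 4 adjusted p were 7.1e-07 or smaller. Asns and Cth, by contrast, were lower in EMM at 24 h but not at P10. Asns had 6412, 6598 and 5526 in Serum/LIF and 6854, 7562 and 7294 in EMM at P10 (0.23 ± 0.073, adjusted p = 0.015), and 5064, 5011 and 5383 in Serum/LIF and 2836, 2818 and 2883 in EMM at P20 (-0.86 ± 0.073, adjusted p = 8.5e-08). Its EMM libraries were thus slightly above Serum/LIF at P10, without passing the test, and clearly below at P20. Cth was higher in EMM at P10, at 2676 ± 142 against 1443 ± 209 (SD, n = 3, 0.89 ± 0.16, adjusted p = 0.00014), and not called at P20 (-0.13 ± 0.16).

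Atf3 gave the largest difference of all members between EMM and Serum/LIF. It had 334, 320.4 and 248 normalised counts in P10 Serum/LIF and 12.1, 10.9 and 29.8 in P10 EMM, and 54.6, 68.6 and 80.1 in Serum/LIF and 24.2, 14.5 and 13.1 in EMM at P20, with no overlap at either passage. The log2 fold change was -4.25 ± 0.36 at P10 (adjusted p = 2e-08) and -2.00 ± 0.33 at P20 (adjusted p = 0.00013). The P10 EMM libraries held 7 to 15 raw counts of the gene, so this fold is known only roughly. Atf4 had 3158, 3306 and 3018 in Serum/LIF and 2665, 2748 and 2971 in EMM at P10, where the libraries did not overlap but the difference was not called (-0.18 ± 0.062, adjusted p = 0.022). At P20 it had 3389, 3236 and 3342 in Serum/LIF and 1786, 1791 and 1733 in EMM, a log2 fold change of -0.91 ± 0.062 (adjusted p = 5.3e-09).

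Nupr1 had 129, 147 and 132 normalised counts in Serum/LIF and 93.2, 88.8 and 105 in EMM at P10 (-0.52 ± 0.20, adjusted p = 0.042), and 184, 179 and 228 in Serum/LIF and 88.4, 63.8 and 77.6 in EMM at P20 (-1.37 ± 0.19, adjusted p = 2e-05). EMM libraries lay below Serum/LIF at both passages and only the P20 difference was called. Ddit3 overlapped between the media at both passages, with 75.2, 105 and 87.9 in Serum/LIF and 117, 101 and 82.5 in EMM at P10 and 173, 179 and 265 in Serum/LIF and 184, 194 and 223 in EMM at P20 (0.20 ± 0.20 and -0.031 ± 0.17). Cebpb was lower at P10 only (-1.13 ± 0.25, and -0.31 ± 0.24 at P20), and Atf5 was higher at P10 (0.58 ± 0.13) and level at P20 (-0.00 ± 0.12), without a called difference between the passages for either.

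Chac1 again had the largest log2 fold change among the stress effectors. It had 211, 231 and 208 normalised counts in Serum/LIF and 37.8, 37.4 and 45.8 in EMM at P10, and 279, 256 and 304 in Serum/LIF and 106, 75.0 and 92.8 in EMM at P20, without overlap (-2.45 ± 0.24 and -1.62 ± 0.21, adjusted p = 7.7e-06 at P20). Ddit4 had 2133, 2805 and 2140.2 in Serum/LIF and 767, 709 and 751 in EMM at P10, and 2008, 2124 and 2096 in Serum/LIF and 1726, 1735 and 2033 in EMM at P20. The media were far apart at P10 (-1.67 ± 0.15, adjusted p = 5.9e-08) and overlapped at P20 (-0.18 ± 0.14). Trib3 was lower at both passages (-0.55 ± 0.15 and -0.82 ± 0.14), and its P10 call was lost without P10 EMM replicate 1 or 2 or P10 Serum/LIF replicate 1 or 3 (-0.56 to -0.45, adjusted p = 0.013 to 0.034). Ppp1r15a was higher at P10 (0.37 ± 0.093), a call lost without P10 EMM replicate 1 or 3 or P10 Serum/LIF replicate 2, or, with every library kept, with scaling by library totals alone, with no filter on low counts or with at least 10 counts required in every library (0.26 to 0.37, adjusted p = 0.011 to 0.039). Sesn2 was not called at either passage (-0.18 ± 0.071 and -0.13 ± 0.07).

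Transporters split in long culture. Slc6a9 had 119.6, 123 and 137 normalised counts in Serum/LIF and 45.8, 51.4 and 66.4 in EMM at P10 (-1.25 ± 0.22, adjusted p = 0.0001), and 151, 137 and 126 in Serum/LIF and 83.7, 81.1 and 99.4 in EMM at P20 (-0.65 ± 0.19, adjusted p = 0.013), without overlap, and only the P10 difference passed the test. Slc7a1 had 1649, 1644 and 1557 in Serum/LIF and 1684, 1519.7 and 1876 in EMM at P10, which overlapped (0.064 ± 0.096), and 1648, 1805 and 2038 in Serum/LIF and 993, 1007 and 968 in EMM at P20, which did not (-0.89 ± 0.095, adjusted p = 1.3e-06). Slc7a3, lower at 24 h, was higher in EMM at both passages (0.65 ± 0.074, adjusted p = 1e-06, and 0.40 ± 0.074). Slc3a2 was lower at both (-0.36 ± 0.081 and -0.36 ± 0.081), and its P20 call was lost without P20 Serum/LIF replicate 1 (-0.32, adjusted p = 0.0102). Its partner Slc7a5 (-0.21 ± 0.098 and -0.32 ± 0.097) was not called, nor was Slc7a11, which had only 4 to 9 raw counts in P10 EMM libraries.

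Of the 6 folate enzymes 1 was lower and 1 higher at each passage, shares close to those of all genes (18.7% each way at P10, 12.5% lower and 13.6% higher at P20). Mthfd2 was lower at both passages, with 1859, 1891 and 1937 normalised counts in Serum/LIF and 932, 837 and 916 in EMM at P10, and 2009, 1949.9 and 2061 in Serum/LIF and 1172, 1154 and 1237 in EMM at P20 (-1.08 ± 0.10 and -0.76 ± 0.099, no overlap). Aldh1l2, which had fallen 3.01-fold at 24 h, had 48.2, 51.6 and 60.2 in Serum/LIF and 74.7, 60.8 and 75.6 in EMM at P10, and 52.5, 75.0 and 96.4 in Serum/LIF and 86.5, 64.3 and 77.6 in EMM at P20. The media overlapped at P20, and neither passage gave a called difference (0.40 ± 0.25 and 0.029 ± 0.23). Shmt2 had 2898, 2887 and 2774 in Serum/LIF and 3695, 3473 and 4039 in EMM at P10 (0.39 ± 0.10, adjusted p = 0.0042), and 3595, 3509.9 and 3662 in Serum/LIF and 3328, 3247 and 3047 in EMM at P20 (-0.16 ± 0.10). It was higher at P10, a call lost without P10 EMM replicate 1 or 3 or P10 Serum/LIF replicate 2 or 3, or, with every library kept, with scaling by library totals alone or with at least 10 counts required in every library (0.29 to 0.40, adjusted p = 0.011 to 0.03). Mthfd1l was higher at P20 (0.44 ± 0.10, adjusted p = 0.0023), a call lost without P20 Serum/LIF replicate 3, or, with every library kept, with scaling by library totals alone (0.35 to 0.44, adjusted p = 0.0101 to 0.0103). Mthfd1 and Shmt1 were not called at either passage.

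The time course and the passage experiment share no samples. Lower in EMM both at 24 h and at P10 were 12 members (Atf3, Ddit4, Trib3, Chac1, Slc3a2, Slc6a9, Aldh18a1, Pycr1, Phgdh, Psat1, Psph and Mthfd2), where 9.83% of the 14652 genes tested in both were. At 24 h and at P20, 14 members were lower (Atf3, Atf4, Nupr1, Trib3, Chac1, Slc7a1, Slc3a2, Asns, Aldh18a1, Pycr1, Phgdh, Psat1, Psph and Mthfd2), where 6.75% of genes were. Of 20 tRNA synthetases 11 were lower at P10 and 10 at P20, with 1 and 0 higher. Of all genes 18.7% and 12.5% were lower and 18.7% and 13.6% higher. Of 17 folate, glycine and methionine neighbours 8 were higher at P10 and 4 lower, the latter close to the 18.7% of all genes, among them Cbs (0.74) and Mthfd2l (-1.68).

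Differences between the passages were tested as an interaction, the EMM effect at P20 minus that at P10. It was called for 9 members, 4 upward (8.28% of all genes) and 5 downward (6.44%). For 7 of them the level in EMM had changed between the passages by a called difference. Markers moved with the passage in EMM: the sum of 6 primitive endoderm markers, mostly Dab2 and Gata4 with Foxa2 at 0 to 4.65, was 68.6 to 91.6 at P10, with a median of 268 and a highest value of 306 at P20. The sum of 8 ESC markers was 87814 to 120298 at P10 and 67852 to 70063 at P20. The fibroblast sum, mostly Thy1, was 284 to 364 and 139.5 to 192, while its Col1a1 rose (4.82 to 18.3 and 27.6 to 35.3). None of these sums overlapped between the passages. Their part in the differences was not tested. Asns went from the P10 level to 2.54-fold less in P20 EMM (-1.35 ± 0.074 for P20 against P10 EMM, and -0.26 ± 0.073 in Serum/LIF; interaction -1.08 ± 0.10, adjusted p = 6.1e-07). Cth fell likewise in EMM (-1.24 ± 0.16) and not in Serum/LIF (-0.22 ± 0.16; interaction -1.02 ± 0.22). Slc7a1 (-0.77 ± 0.096 in EMM) and Atf4 (-0.66 ± 0.062 in EMM) also fell, with interactions of -0.95 ± 0.13 and -0.73 ± 0.087.

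The upward differences had varied origins. Psat1 rose in EMM from P10 to P20 (0.97 ± 0.069), and the interaction was 1.25 ± 0.096 (adjusted p = 5.2e-08), though EMM remained below Serum/LIF. Ddit4 rose in EMM (1.30 ± 0.15) and its P20 libraries overlapped Serum/LIF (interaction 1.49 ± 0.21). Vldlr rose in EMM (1.61 ± 0.17) and changed sides, from 87.8 ± 3.65 against 177 ± 33.9 in Serum/LIF at P10 to 267 ± 7.97 against 155 ± 7.29 at P20 (SD, n = 3; interaction 1.80 ± 0.24). For Atf3 it was Serum/LIF that changed: the gene was lower there at P20 than at P10 (-2.15 ± 0.28), and the change in EMM was not called (0.10 ± 0.42). Its interaction, 2.25 ± 0.50, lost the call without P10 EMM replicate 1 or 2 or P20 EMM replicate 1 (1.98 to 2.07, adjusted p = 0.012 to 0.016). That of Shmt2 (-0.55 ± 0.14, adjusted p = 0.009) lost it without P10 EMM replicate 1, 2 or 3, P10 Serum/LIF replicate 1, 2 or 3, P20 EMM replicate 1, 2 or 3 or P20 Serum/LIF replicate 1, 2 or 3, or, with every library kept, with DESeq2's size factors, with scaling by library totals alone or with at least 10 counts required in every library (-0.60 to -0.51, adjusted p = 0.0103 to 0.028), that is, whichever library was left out.

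**Figure D4:**
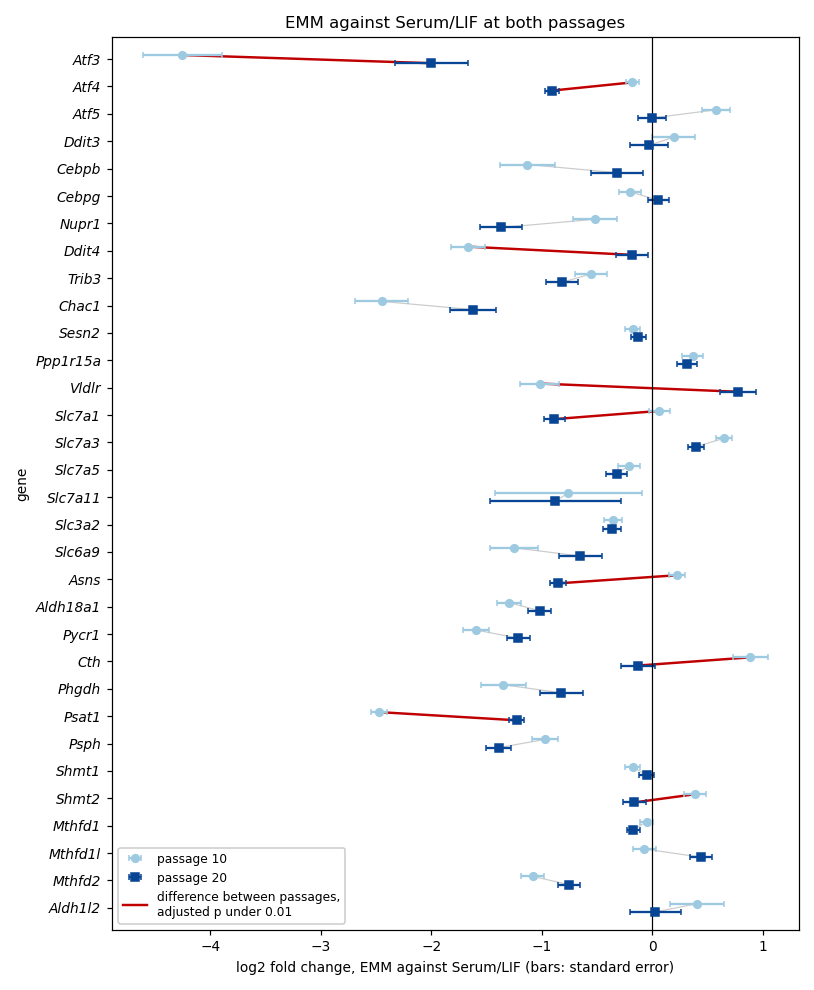
Log2 fold change of EMM against Serum/LIF (x axis, bars give the standard error) for each member (y axis) at P10 (light circles) and P20 (dark squares), joined in red where the difference between passages had adjusted p under 0.01. The 9 red lines belong to Atf3, Atf4, Ddit4, Vldlr, Slc7a1, Asns, Cth, Psat1 and Shmt2, and that of Vldlr crosses 0.

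Within one medium, members changed least in Serum/LIF from P10 to P20: 3 were lower and 1 higher, where 2.85% and 3.16% of all genes were. The lower ones were Atf3, Ppp1r15a (-0.75 ± 0.095) and Psat1 (-0.28 ± 0.067), and the higher one was Ddit3 (1.19 ± 0.19). The Psat1 call was lost without P10 Serum/LIF replicate 1, 2 or 3 or P20 Serum/LIF replicate 1, 2 or 3, or, with every library kept, with scaling by library totals alone, with no filter on low counts or with the replicate numbers of the titles as a block (-0.31 to -0.21, adjusted p = 0.012 to 0.058). In EMM 8 were lower and 7 higher, against 11.9% and 13.3% of all genes. With scaling by library totals alone 6 were lower and 10 higher, where 1418 of 16054 genes were lower and 2587 higher. Ppp1r15a was lower at P20 in all 3 media (-0.81 ± 0.094 in EMM and -0.63 ± 0.095 in 2i/LIF), and Ddit3 was higher in all 3 (0.97 ± 0.19 and 1.01 ± 0.20). The labels give no dates of collection, so passage and the time of collection cannot be told apart.

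2i/LIF changed most between passages. From P10 to P20, 21 members rose and 1 fell in 2i/LIF, where 13.2% of all genes rose and 15.2% fell, and the member median was 0.80. Without P20 2i/LIF replicate 1, the library that stood apart, 20 rose and 1 fell. In a fit of the 6 2i/LIF libraries alone with the replicate number as a block, an alternative chosen after seeing the data, 20 rose and 1 fell, and Slc6a9 (0.77, adjusted p = 0.029) and Shmt1 (0.26, adjusted p = 0.014) were no longer called. Markers moved with the passage too: in 2i/LIF the 2-cell-like sum was 217 to 504 at P10 and 9.4 to 39.3 at P20. The trophoblast sum was 858 to 1163 and 1883 to 1941, a rise mostly in Krt8 (453 to 749 and 1566 to 1666). Cdx2 went the other way (224 to 298 and 9.4 to 15.5), as did scarce Gata3. The part of these markers in the members' rise was not tested. Chac1 had 22.0, 10.2 and 30.1 normalised counts at P10 and 162, 249 and 158 at P20 (3.12 ± 0.26, adjusted p = 7.9e-08). Nupr1 had 181, 109 and 112 at P10 and 907, 743 and 603 at P20 (2.50 ± 0.19, adjusted p = 2.4e-08). Both genes separated fully, and Nupr1 was higher in P20 2i/LIF than in any other group of the experiment.

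Atf4 mRNA rose with them, from 2461, 2356 and 2238 at P10 to 4450.1, 4479.9 and 4742 normalised counts at P20 (0.96 ± 0.062, adjusted p = 3.6e-09). So did Psat1, from 3144, 2804 and 2782 at P10 to 7109.8, 7953 and 6879 at P20 (1.33 ± 0.068), and Mthfd2, from 736, 509.7 and 624 at P10 to 2298, 2743 and 2236 at P20 (1.96 ± 0.10). Trib3 (1.92 ± 0.15), Slc7a5 (1.69 ± 0.10), Pycr1 (1.43 ± 0.11) and Psph (1.14 ± 0.12) rose too, as did 14 of the 20 tRNA synthetases, against 13.2% of all genes. Phgdh had 1446, 929 and 955 at P10 and 3282, 2060.0 and 1633 at P20 (1.06 ± 0.20), with replicate 1 the highest in each group, and its call was lost with only the groups compared in the fit (1.08, adjusted p = 0.018). Shmt2 had 2873, 2389 and 2037 at P10 and 4126, 4266 and 3406 at P20 (0.69 ± 0.10). Asns was high at both passages, at 13613, 13154 and 11919.5 at P10 and 13526, 13649 and 14092 at P20, and did not differ detectably between them (0.093 ± 0.072).

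Of the enzymes of proline and serine synthesis in 2i/LIF, Aldh18a1 had 1027, 1015 and 837 normalised counts at P10 and 1675, 2081 and 1580.5 at P20 (0.90 ± 0.10). Pycr1 had 146, 141 and 166 at P10 and 425, 433 and 375 at P20, and Psph had 239, 209 and 262 at P10 and 606, 509 and 469 at P20. All 3 separated fully between the passages. Ddit3 had 53.4, 65.4 and 70.0 at P10 and 117, 120.4 and 146 at P20, also without overlap. Slc6a9 had 50.2, 52.3 and 45.6 at P10 and 70.5, 120.4 and 65.1 at P20 (0.83 ± 0.22), and its call was lost without P10 2i/LIF replicate 1, 2 or 3 or P20 2i/LIF replicate 2, or, with every library kept, with the 2i/LIF libraries alone and the replicate number as a block or with only the groups compared in the fit (0.46 to 0.88, adjusted p = 0.011 to 0.076). The passages did not overlap, with P20 replicate 2 well above the rest. Aldh1l2 had 31.4, 50.8 and 42.4 at P10 and 56.4, 86.4 and 56.5 at P20 and was not called (0.70 ± 0.25, adjusted p = 0.034), although no P20 library fell below a P10 library. Ddit4 had 797, 866 and 866 at P10 and 1426, 1324 and 825 at P20 (0.49 ± 0.15, adjusted p = 0.014), and Atf3 had 102, 100.2 and 44.0 at P10 and 82.2, 82.8 and 69.9 at P20 (-0.03 ± 0.30). Neither was called, and both overlapped between the passages.

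Set against Serum/LIF, 2i/LIF was accordingly lower at P10, with 18 members lower and 2 higher (25.6% and 26.4% of all genes), and more often higher than lower at P20, with 5 lower and 12 higher (23.2% and 21.0%). Markers differed here too. At P10 the trophoblast sum was 858 to 1163 in 2i/LIF and 8219.6 to 9594 in Serum/LIF, though Cdx2 was higher in 2i/LIF (224 to 298 against 46.3 to 67.5). The primitive endoderm sum was 91.5 to 103 and 174 to 225, though Pdgfra and Sox17 were higher in 2i/LIF. The part of these markers was not tested. Asns and Slc7a1 were the 2 members higher at P10 (1.06 ± 0.073 and 1.17 ± 0.095), and both were higher at P20 (1.42 ± 0.074 and 1.16 ± 0.095). Slc7a1 had 3417, 3923 and 3606 normalised counts in P10 2i/LIF and 3971, 4619.5 and 3687 in P20 2i/LIF, above every Serum/LIF and EMM library. At P20 Nupr1 (1.93 ± 0.18) and Slc7a5 (1.00 ± 0.098) were the other called members raised by a log2 fold change of about 1 or more, and scarce Slc7a11 (1.42 ± 0.55, adjusted p = 0.034) was not called. Scaling by library totals alone gave 6 lower and 7 higher at P20, where 4372 of 16054 genes were lower and 2532 higher. The median gene of chromosome 6, which holds Asns and Mthfd2, was higher by 0.33 in P20 2i/LIF than in P20 Serum/LIF, and that of chromosome 8, which holds Slc7a5, by 0.45, while the medians of all genes were near 0. The medians of chromosomes 6 and 8 were also 0.18 and 0.32 in 2i/LIF from P10 to P20. In EMM against 2i/LIF at P20 they were -0.34 and -0.29. The part of this in the 3 genes was not tested in any of these comparisons.

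The balance of members called between EMM and 2i/LIF turned round between the passages. By group mean Cebpb and Slc7a3 were higher in EMM at both, and Atf3, Slc7a1 and Asns higher in 2i/LIF at both. At P10, EMM exceeded 2i/LIF in 13 members and fell short of it in 7, where 22.9% and 22.2% of all genes did so, and at P20 it did so in 5 and 19, against 25.7% and 22.9%. At P10 the largest differences were Cebpb (2.62 ± 0.33) and Slc7a3 (1.27 ± 0.076) upward, and Atf3 (-2.34 ± 0.38) and Slc7a1 (-1.11 ± 0.096) downward. Cebpb had 10 to 12 raw counts in the P10 2i/LIF libraries, so its fold is known only roughly. At P20 they were Vldlr (1.83 ± 0.17) and Cebpb (1.51 ± 0.27) upward, and Nupr1 (-3.30 ± 0.19), Slc7a11 (-2.30 ± 0.57), Asns (-2.27 ± 0.076), Atf3 (-2.21 ± 0.33) and Slc7a1 (-2.05 ± 0.097) downward. Atf4 itself was higher in EMM at P10 (0.25 ± 0.062) and lower at P20 (-1.36 ± 0.063, adjusted p = 3.1e-12), and the first of these calls was lost without P10 2i/LIF replicate 3 or P10 EMM replicate 3, or, with every library kept, with scaling by library totals alone, with no filter on low counts or with only the groups compared in the fit (0.19 to 0.26, adjusted p = 0.015 to 0.043). The Slc7a11 call rested on few reads and was lost without P20 2i/LIF replicate 2 or P20 EMM replicate 3 (-2.06 to -1.86, adjusted p = 0.011 to 0.013). Without P20 2i/LIF replicate 1, the P20 counts were again 5 and 19.

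**Figure D5:**
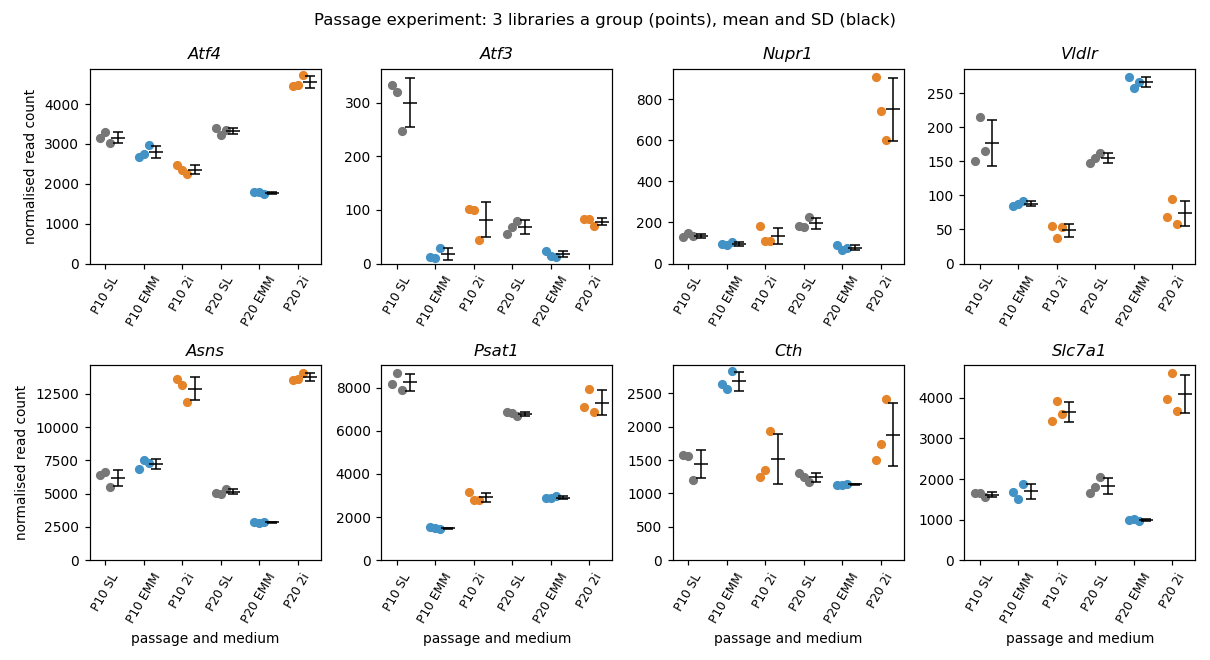
Normalised read counts (y axis, from 0) of Atf4, Atf3, Nupr1, Vldlr, Asns, Psat1, Cth and Slc7a1 in Serum/LIF (SL, grey), EMM (blue) and 2i/LIF (2i, orange) at P10 and P20 (x axis), with 3 libraries a group as points and the mean and SD in black. Nupr1 is highest in P20 2i/LIF, Asns is higher in 2i/LIF than in Serum/LIF at both passages (log2 fold change 1.06 and 1.42), Vldlr is highest in P20 EMM, and Psat1 is lowest in P10 EMM.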

How the data were processed

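RNA-seq was run on E14tg2a ESCs in Serum/LIF and EMM over a time course (12 libraries) and in Serum/LIF, EMM and 2i/LIF at P10 and P20 (18 libraries), with groups taken from the labels. For the time course the authors deposited raw counts per gene, and the submitters' notes name STAR, featureCounts and DESeq2 with mm10. In the passage experiment the values per gene are estimated counts as deposited by the authors, and the notes name STAR, Salmon and DESeq2 with mm10. Of those values 9.982% were not whole, and all were rounded to whole counts before testing. The methods also describe rRNA depletion and 3 biological replicates from independent experiments. Libraries of the time course were made with a kit not stated as directional and those of the passage experiment with a directional kit, and the strand used in counting is not given in the sources used here. The kits and counting differ, so each experiment was fitted on its own.

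Gene symbols were matched by Ensembl identifier for 52397 of 52630 and 55141 of 55487 genes, with positions and overlaps from the GENCODE M21 annotation of GRCm38. Low genes were removed with edgeR's filterByExpr, libraries were scaled by TMM, and all groups of an experiment shared one quasi-likelihood fit (R 4.3.3, edgeR 4.0.16, limma 3.58.1). P-values were two-sided and adjusted by Benjamini-Hochberg over all genes tested, and a gene was called at adjusted p under 0.01. All fold changes in the text are log2 values with the standard error of the fit unless a fold is named. Alternatives were DESeq2 1.42.0 (Wald test or its size factors), scaling by library totals alone, other filters and thresholds, fits limited to the compared groups, a block for the replicate number, and leaving out each library. On simulated counts with the real library sizes, the test recovered 100 of 100 genes changed by a log2 of 1 and 100 of 100 changed by 2 for EMM 3 h against Serum/LIF (16049 genes, 0 false calls). For EMM against Serum/LIF at P10 it recovered 96 of 100 and 100 of 100 (16054 genes, 0 false calls). The simulation gave every gene the same spread between replicates, and the changed genes were drawn only from those with higher mean counts. It therefore does not show the recovery for scarce or more variable members, such as Slc7a11 or Ddit3.

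The members, the role classes and the pathway and marker lists were chosen with earlier results of these data known. Values of every library are given for 17 members: Atf3, Nupr1, Atf4, Ddit3, Chac1, Ddit4, Slc6a9, Slc7a1, Pycr1, Aldh18a1, Asns, Psat1, Psph, Phgdh, Aldh1l2, Mthfd2 and Shmt2. Of each pathway list at most the 2 largest called rises and the 2 largest called falls of a comparison are named. Several members overlap another gene, so that reads may be shared: Ddit3 with Mars, Atf5 with Nup62, Shmt2 with Ndufa4l2, Cebpb with Tmem189, Shmt1 with Smcr8, Sesn2 with Gm12981, Psph with Cct6a, Ppp1r15a with Tulp2, Aldh1l2 with D10Wsu102e, Slc7a5 with Gm20388 and Slc6a9 with Ccdc24. Libraries of a group differed beyond sampling noise in every pair, so no library was counted as a copy of another. Replicate numbers were checked for pairing by the correlation of deviations from group means. The rule, every pair over 0.1 with 3 or more pairs, was met only between P10 and P20 2i/LIF (0.134 to 0.299 for the same number, -0.245 to 0.0518 for others). By the numbers of the column names, Serum/LIF and EMM 24 h share only 2 numbers, whose pairs lay at 0.152 and 0.28. The labels give no shared culture. Where replicates are not separate cultures, p-values measure only the spread between these libraries.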

Additional observations from a re-analysis of the deposited data

Results flagged for a closer look

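For 9 members the difference between EMM and Serum/LIF was not the same at P20 as at P10 by a test of the difference itself (adjusted p under 0.01 over all genes). The log2 difference at P20 minus that at P10 was 2.25 for Atf3, 1.80 for Vldlr, 1.49 for Ddit4 and 1.25 for Psat1. It was -1.08 for Asns, -1.02 for Cth, -0.95 for Slc7a1, -0.73 for Atf4 and -0.55 for Shmt2. Vldlr was lower in EMM at P10 (-1.02) and higher at P20 (0.78), both called, and Cth was higher at P10 (0.89) with no call at P20 (-0.13). For Shmt2 neither medium changed by a called amount between the passages (-0.22 in EMM and 0.33 in Serum/LIF).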

How the results depend on the processing

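Among called member values, none changed sign under any alternative. Over the alternatives that kept every library, 1902 of 1984 values kept their call and 82 lost it, and over those that left out 1 library 1485 of 1662 kept it and 177 lost it. Counts of members called that moved by more than 1.5 times are the following. The shares of all genes in the main fit are those given above for each comparison, and shares under an alternative are given only where stated. With DESeq2's size factors 2 were higher at 9 h. At adjusted p under 0.05, 2 were higher at 9 h, 2 from 9 to 24 h and 2 in Serum/LIF from P10 to P20. Requiring 10 counts in every library left 3 higher in EMM at P10, and scaling by library totals alone left 3 higher there and 7 higher in P20 2i/LIF than in Serum/LIF. With no filter on low counts 2 were higher at 9 h and 5 from 3 to 9 h. With only the groups compared in the fit, 0 were higher at 9 h and 0 from 9 to 24 h, 3 were lower in P20 2i/LIF than in Serum/LIF, and in Serum/LIF 2 were higher and 5 lower at P20 than at P10. Requiring also a log2 fold change above 1 in size left 0 higher and 1 lower at 3 h, 0 and 6 at 9 h, 0 and 10 at 24 h, 0 and 0 from 3 to 9 h, and 0 and 1 from 9 to 24 h. Of all 16049 genes, 405 were lower on this condition at 3 h, a share close to that of the members, 561 at 9 h and 752 at 24 h, and 273, 329 and 561 higher. On the same condition 0 were higher in EMM than in Serum/LIF at P10, while 7 were lower and 0 higher at P20. Of 16054 genes, 1070 were higher there at P10, and at P20 993 were lower and 553 higher. Against 2i/LIF, 2 were higher and 2 lower in EMM at P10, and 2 higher at P20 (all genes 1771, 1774 and 2561). In 2i/LIF against Serum/LIF at P20, 4 were higher and 2 lower (all genes 1087 and 2489). From P10 to P20, 3 were higher and 2 lower in EMM, 12 higher and 0 lower in 2i/LIF and 1 lower in Serum/LIF, and the difference between passages was downward for 2 (all genes 898 and 473, 572 and 1058, 108, and 538). Leaving out 1 library gave 0 to 1 higher at 9 h, 0 to 1 higher from 9 to 24 h, 3 to 5 higher in EMM at P10, and 3 to 5 lower in P20 2i/LIF than in Serum/LIF. The looser letters ATGNAA occurred near 12 of the 28 members with a window, against 8 for TGATGNAA, and near 43.39% of all genes, a share like that of the members. The cause of these shifts was not tested.

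With 3 pairs, replicate numbers paired the 2i/LIF libraries of the passages and no other groups. Deviations from the group means of libraries with the same number correlated by -0.134 to 0.207 in the time course (-0.132 to 0.28 by the numbers of the column names, where the 2 pairs of Serum/LIF with EMM 24 h were both over 0.1) and -0.212 to 0.299 in the passage experiment, over genes, and every pair of P10 with P20 2i/LIF lay at 0.134 or above. With the numbers of the titles as a replicate block, 1 member was higher and 25 lower at 24 h, 5 and 14 at P10 and 3 and 14 at P20. With the differing numbers of the column names as a block, 0 were higher and 20 lower at 9 h, and 1 was higher and 24 lower at 24 h. Scaling by library totals alone moved the median of all genes by -0.118 for 2i/LIF against Serum/LIF at P20 and by less than 0.1 in the other comparisons. It moved the split of all genes called higher and lower from 2622 and 2916 to 1922 and 3855 at 3 h, from 2191 and 2065 to 2775 and 1661 from 3 to 9 h, from 3005 and 2998 to 2320 and 3582 in EMM at P10, from 2176 and 2003 to 1579 and 2690 in EMM at P20, and in Serum/LIF between passages from 507 and 458 to 703 and 307. The scarcest members rested on few reads, such as Slc7a11, with 0 to 13 raw counts in P10 2i/LIF, and Atf3, with 7 to 15 in P10 EMM.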
